A study of Mus musculus with 4 samples.

Results

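The comparison described here sets mammary fibroblasts that lack *Ets2* and grew beside an *ErbB2*-expressing epithelium against *Ets2* null fibroblasts from normal glands. It takes in every gene with a probe set that names it alone, which gave 34958 of 45101 probe sets and 18194 genes, on 2 of the 4 arrays of the experiment. The normal array held RNA of mice of genotype FspCre;Ets2db/loxP, and the *ErbB2* array that of ErbB2;Fsp-cre;Ets2db/loxP mice. All mice were 16-week-old FVB/N females. Every mouse, controls with *Ets2* included, carried Ets2db, an allele without the DNA-binding domain, over the conditional Ets2loxP allele, so the mice called *Ets2* present had a single functional copy. Cre was driven by the fibroblast-specific protein promoter, and *ErbB2* was expressed in the mammary epithelium from the MMTV promoter. Stromal cells were taken from glands without a palpable tumor, separated by gravity, cultured, and used at the second passage. Each genotype was n = 1, and whether that was a single mouse or a pool is not stated.

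Ets2 is a transcription factor of the ETS family that is switched on by phosphorylation downstream of Ras and ERK signaling. Fibroblasts make most of the collagen and proteoglycan of the mammary stroma, and beside a tumor they can take on a contractile, matrix-remodeling state and secrete growth factors and chemokines. The comparison addresses what the *ErbB2* epithelium leaves in its fibroblasts when Ets2 is missing. There was 1 array for each genotype, so no test was possible, and every value is a log2 level or a log2 difference (*ErbB2* array minus normal array) that describes these arrays. A difference of 1 is 2-fold and one of 2 is 4-fold. Levels under log2 6 may be background, so a fold is given only where both levels reach it. Where a gene had several probe sets, the brightest was used.

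*Ets2* itself was at 8.35 on the normal array and 8.31 on the *ErbB2* array of *Ets2* null cells, against 8.14 and 8.34 with *Ets2*. Where its probes lie in the gene is not known here, so this does not check the labels. Defining fibroblast genes were high on both arrays. *Vim*, the intermediate filament of mesenchymal cells, was at 14.06 and 14.05, and *Col1a2*, a chain of type I collagen, at 14.29 and 14.61. The Fsp gene, *S100a4*, was at 14.08 and 13.34. Pearson's r between both arrays over all probe sets was 0.990.

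Genes that were lower on the *ErbB2* array outnumbered those that were higher. Past 2-fold, 275 of 18194 genes (1.51%) were lower and 99 (0.544%) were higher. Past 4-fold, 40 genes (0.22%) were lower and 13 (0.0715%) were higher. Over all genes the median difference was 0.03 and the robust SD was 0.218. The lower genes were led by the cytokine *Tslp*, keratins and other epithelial genes, and *Aldh1a1*. The higher genes were led by *Ccn3*, *Cyp7b1*, *Gt(ROSA)26Sor*, *Lgi2* and *Il33*. Of the 40 genes past 4-fold lower, 18 were at log2 6 or more on both arrays, as were 7 of the 13 higher genes. Just inside 4-fold lay *Pilra* (-2.04), *Krt7* (-2.04), *Npnt* (-2.02), *Serpinb1a* (2.01) and *Rassf6* (-2.004), and just outside it *Slpi* (-1.99), *Cldn4* (-1.96), *Ifi27l2b* (-1.96), *Fap* (1.94) and *Nptx2* (-1.91).

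**Figure D1:**
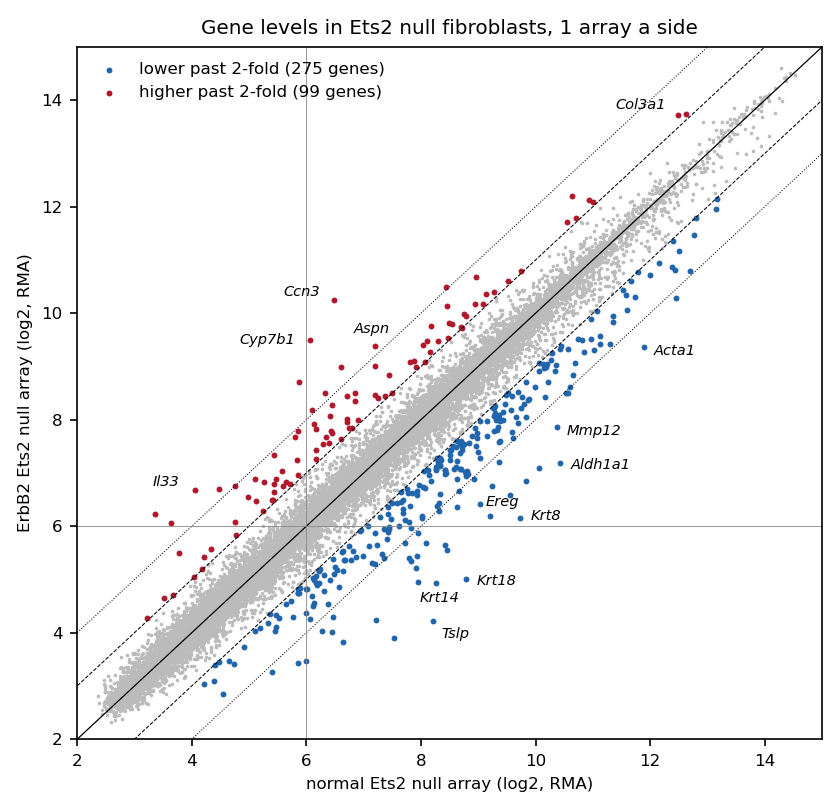
Log2 level of each of 18194 genes on the normal *Ets2* null array (x axis) and on the *ErbB2* *Ets2* null array (y axis), with dashed lines at 2-fold, dotted lines at 4-fold and thin grey lines at log2 6. The 275 blue genes below the diagonal outnumber the 99 red genes above it, and several of the farthest blue genes end under log2 6.

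The levels of these genes were also placed among all 4 arrays. Because the genes were picked by the difference between the *Ets2* null arrays, those arrays tend to hold the extremes by selection. The counts are a description only. Of the 275 lower genes, 206 had their highest level of all 4 arrays on the normal *Ets2* null array, and 241 had their lowest on the *ErbB2* *Ets2* null array. Of the 99 higher genes, 82 were lowest on the normal *Ets2* null array and 79 were highest on the *ErbB2* *Ets2* null array. With 1 array each, an effect of genotype cannot be told apart from one of the single culture.

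Epithelial genes held 10 of the 40 genes lower past 4-fold. The luminal and basal lists had 27 and 18 measured genes of 18194. Keratins 8 and 18 are the paired filaments of luminal cells, and keratins 5 and 14 those of basal cells. *Krt18* was at 8.78 on the normal array and 5.01 on the *ErbB2* array, a difference of -3.77. *Krt8* was at 9.73 and 6.15, 11.9-fold lower, and its 3 probe sets differed by -4.24 to -3.36. *Krt14* was at 8.27 and 4.93 on its brightest probe set, and *Krt5* was at 8.28 and 6.38, 3.72-fold lower. The *ErbB2* array was the low one for each of these keratins.

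The same held for several other genes of epithelial cells and their junctions. *Dsp*, the desmoplakin of desmosomes, was at 6.64 and 3.82. *Perp*, a p53 target found in desmosomes, was at 7.22 and 4.24. *Cd24a*, a surface protein of luminal cells, was at 7.95 and 4.95, and the secreted *Wfdc2* at 8.42 and 5.64. *Lamb3* and *Lama3*, chains of the laminin that anchors basal cells, differed by -2.24 and -1.85. *Krt7* was 4.10-fold and *Krt19* 3.58-fold lower. *Cdh1*, E-cadherin, was under log2 6 on all 4 arrays, at 4.55 and 2.84 in *Ets2* null cells. *Epcam* was at 7.98 and 8.10 on its brightest probe set but differed by -2.21 on its other one, so its probe sets did not agree.

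As lists, 8 of 27 luminal and 9 of 18 basal markers measured were lower past 2-fold, 5 of each past 4-fold, and 0 were higher. Over all genes, 1.51% were lower past 2-fold and 0.22% past 4-fold. The median difference was -0.40 for the luminal and -0.91 for the basal list. Above 0 lay 7 luminal markers, up to 0.79, and 6 basal markers, up to 0.52. On the higher *Ets2* null array, 14 luminal and 11 basal markers reached log2 6. Summed on the linear scale, the luminal list came to 4229 on the normal and 1740 on the *ErbB2* array, and the basal list to 1914 and 959. The basal markers at log2 6 or more went from 11 to 5. *Trp63*, the transcription factor of basal cells, was at 3.72 and 4.24, under log2 6 on both. In cultured bulk samples, fewer cells of a type and less RNA per cell cannot be told apart.

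In fibroblasts with *Ets2* most of these genes lay the other way round, except *Krt19*, which was lower on the *ErbB2* array there too (-0.44). *Epcam* there differed by 0.02 on its brightest probe set but by 3.10 on its other one, at 5.38 and 8.48. There *Krt18* was at 5.21 on the normal and 8.52 on the *ErbB2* array, *Krt8* at 6.65 and 9.25, and *Krt14* at 5.54 and 8.26. The low arrays for these keratins were therefore the normal one with *Ets2* and the *ErbB2* one without it. Whether a different share of epithelial cells in the 4 cultures accounts for these values was not tested. Marker genes of other cell types were 12 of the 40 genes lower past 4-fold and 27 of the 275 lower past 2-fold. Their lists, the epithelial ones included, had 7 to 39 measured genes each, out of 18194.

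**Figure D2:**
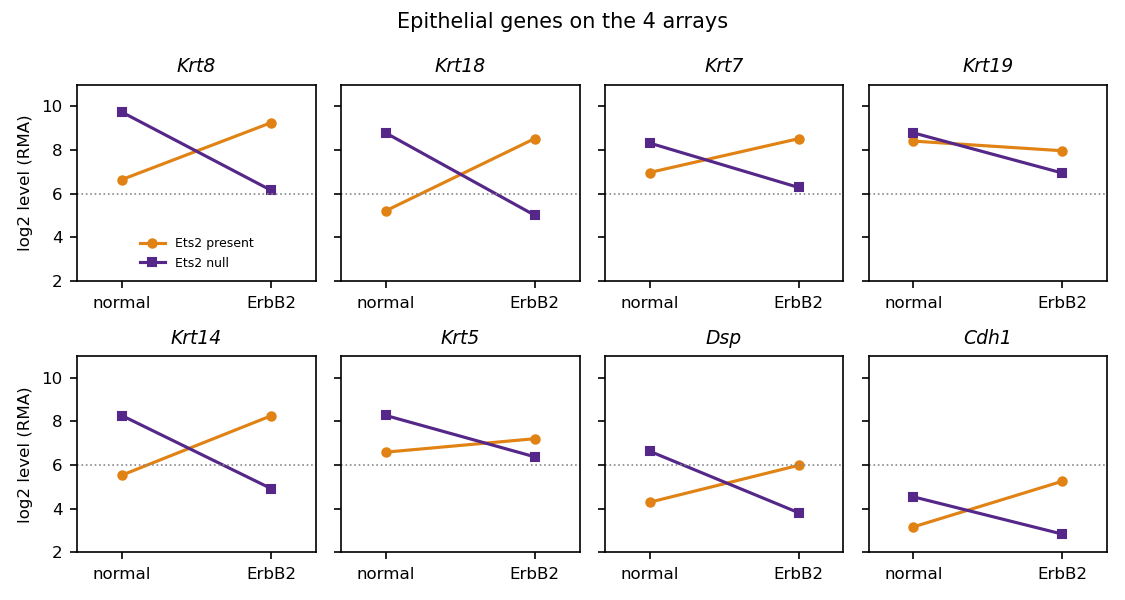
Log2 level of 8 epithelial genes on the normal and *ErbB2* arrays, with *Ets2* (orange circles) and without it (purple squares), 1 array per point, the dotted line marking log2 6. The purple lines run down for all 8 genes, and the orange lines run up for 7 of them, *Krt19* being the exception.

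Genes of the contractile apparatus were lower as a group. This apparatus is built from smooth muscle actins, tropomyosins, myosin chains and the proteins that tie actin to the membrane, and it is what marks a myofibroblast. Of 21 such genes measured, 20 were below 0 and 5 were lower past 2-fold, with a median difference of -0.74. *Myh11*, the smooth muscle myosin heavy chain, was at 9.36 and 7.57, 3.45-fold lower. *Mylk*, the kinase that activates myosin, was at 11.73 and 10.31, and *Actg2*, the enteric smooth muscle actin, was 2.45-fold lower. *Lmod1*, which nucleates actin filaments, was 2.34-fold lower. *Csrp1*, a LIM protein bound to actin, was at 13.16 and 11.96.

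The most abundant members differed less. *Acta2*, the myofibroblast actin, was at 14.30 and 13.99 on its brightest probe set, and its probe sets spanned -2.40 to -0.30. *Tagln*, or SM22, was at 14.18 and 13.75. *Myh9*, the non-muscle myosin, was at 12.67 and 12.69, and was the member that was not below 0. With *Ets2* the list had a median of 0.08, with 12 of 21 genes above 0. There *Myh11*, *Actg2* and *Mylk* differed by -0.87, -0.65 and -0.19, while *Lmod1* and *Csrp1* differed by 0.33 and 0.37.

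*Acta1*, the skeletal muscle actin and a classic target of serum response factor, had the largest difference among the muscle genes. It was at 11.89 and 9.37, 5.74-fold lower, against 10.34 and 10.59 with *Ets2*. Both *Ets2* null arrays were outside the range of the arrays with *Ets2*, one above and one below. *Ankrd1*, another muscle-associated gene, chosen after its value was seen, was at 12.46 and 10.29. Of 27 skeletal muscle markers, 3 were lower past 2-fold, *Acta1* among them, and 6 were above 0. *Acta1* was also the defining marker well above the background, since *Myog* (5.85 and 5.18) and *Mylpf* (6.07 and 5.30) were near it. Summed on the linear scale, the list came to 5100 and 1696, against 3498 and 4411 with *Ets2*. Basal cells of the gland are contractile too, and the part of the lower basal list (1914 and 959 summed) in these values was not tested.

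Serum response factor binds the CArG box, a run of A and T bases between CC and GG, which drives many contractile genes. The promoters of *Acta1* and of *Vcl*, the vinculin of focal adhesions (12.74 and 11.78, a difference of -0.96), hold one each, and they are shown because both genes were lower. The windows run from 250 bases before to 50 bases after the start of the gene, are from RefSeq on GRCm38.p6, are read in the direction of the gene, and have the CArG box in capitals. The *Acta1* window is chr8:123894726-123895025 on the minus strand, with the box starting 73 bases before the start. The *Vcl* window is chr14:20929148-20929447 on the plus strand, with the box 227 bases before it.
Acta1: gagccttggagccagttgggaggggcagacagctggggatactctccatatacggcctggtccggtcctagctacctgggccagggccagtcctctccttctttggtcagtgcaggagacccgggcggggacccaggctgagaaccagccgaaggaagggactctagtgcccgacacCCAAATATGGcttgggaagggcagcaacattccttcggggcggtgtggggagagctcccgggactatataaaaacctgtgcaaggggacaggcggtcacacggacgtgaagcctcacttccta
Vcl: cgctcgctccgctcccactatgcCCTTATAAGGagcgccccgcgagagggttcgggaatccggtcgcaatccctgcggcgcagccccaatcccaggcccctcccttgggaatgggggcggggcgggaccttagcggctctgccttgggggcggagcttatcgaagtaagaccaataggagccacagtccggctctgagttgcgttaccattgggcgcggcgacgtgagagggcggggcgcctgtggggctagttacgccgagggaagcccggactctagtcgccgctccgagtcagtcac
Of 14453 measured genes with such a window, 229 (1.58%) held a CArG box on either strand. Of 18 contractile genes with a window, 3 held one, namely *Vcl*, *Myl9* and *Cnn2*. A match of letters is a description and shows no binding.

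Matrix genes lay in both directions. Of 27 collagens, 3 were higher and 3 lower past 2-fold, with a median of 0.21, and of 45 matrix glycoproteins and proteoglycans 5 were higher and 2 lower, with a median of 0.07. Among basement membrane genes, some were lower. *Col4a1* and *Col4a2*, the chains of the network collagen of basement membranes, were at 12.77 and 12.15 on the normal array and 11.47 and 10.95 on the *ErbB2* array, 2.46-fold and 2.30-fold lower. *Nid2*, a nidogen that links laminin to this collagen, was at 8.77 and 7.02, 3.35-fold lower. *Efemp1*, a fibulin, was at 8.69 and 7.08. *Ntn4*, a netrin of basement membranes, was at 7.93 and 5.44, and *Npnt*, nephronectin, an integrin ligand there, was at 10.52 and 8.50, 4.06-fold lower. Others were not, since the laminin chains *Lama4*, *Lamb1* and *Lamc1* differed by 0.16, 0.14 and 0.07, and the basement membrane collagens *Col15a1* and *Col18a1* by 0.90 and 0.21. This grouping was made after the values were seen.

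Some interstitial genes were higher. *Col3a1*, the fibrillar collagen of loose connective tissue, was at 12.48 and 13.72, 2.36-fold higher. *Aspn*, a small proteoglycan that binds collagen, was at 7.19 and 9.38, 4.58-fold higher. *Lum*, lumican, which spaces collagen fibrils, was at 6.71 and 8.45, 3.34-fold higher. *Postn*, periostin, was at 12.63 and 13.74. *Mfap4* and *Fbn2*, proteins of elastic microfibrils, differed by 1.87 and 1.36, starting from levels under log2 6. *Fap*, the protease that marks activated fibroblasts, was at 5.85 and 7.79. Type I collagen differed less, at 0.48 for *Col1a1* and 0.32 for *Col1a2*. Other interstitial genes differed little or were lower, *Bgn* at 0.03, *Sparc* at 0.07, *Col5a2* at 0.06, *Col12a1* at -0.03, *Fmod* at -0.24 and *Tnc* at -0.51.

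Of 22 fibroblast markers, 4 were higher past 2-fold (*Fap*, *Lum*, *Col3a1* and *Postn*) and 0 were lower. Several of these levels were low on the normal *Ets2* null array rather than high on the *ErbB2* array. *Col3a1* was at 13.62 and 13.93 with *Ets2*, and *Postn* at 13.36 and 13.53, so the array at 12.48 and 12.63 was the one apart. *Aspn*, at 7.65 and 7.72 with *Ets2*, was highest on the *ErbB2* *Ets2* null array.

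**Figure D3:**
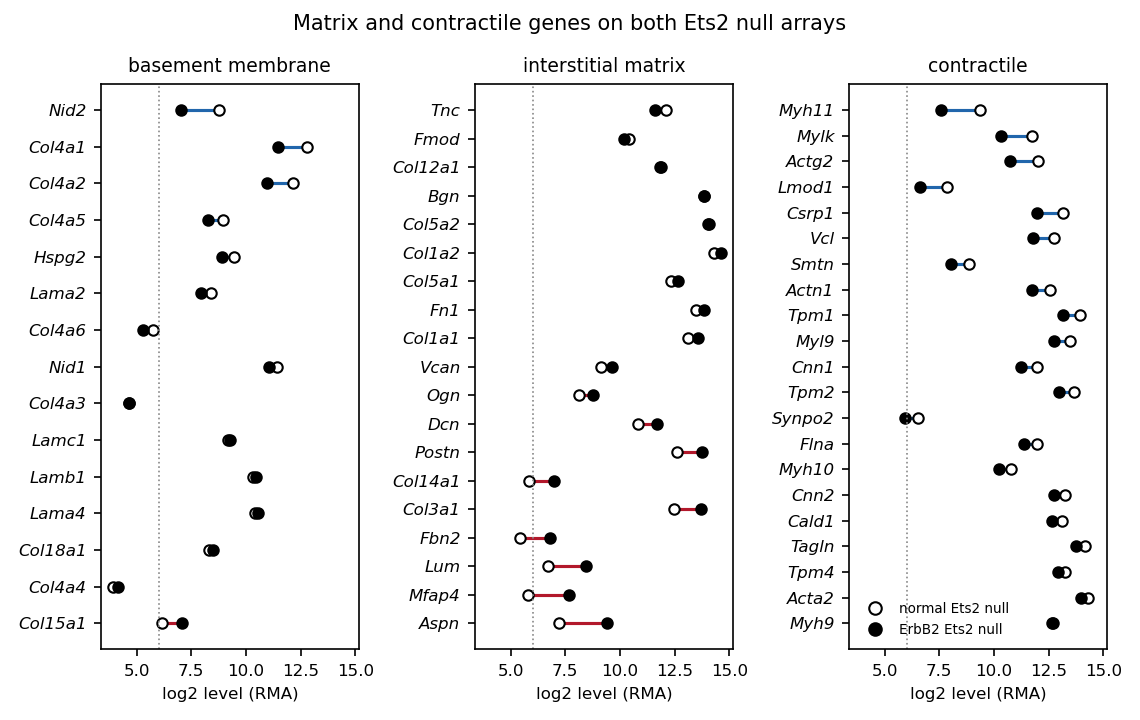
Log2 level on the normal (open circles) and *ErbB2* (filled circles) *Ets2* null arrays of 15 basement membrane and 19 interstitial genes picked from the matrix lists after their values were seen, and of all 21 contractile genes, with red lines for higher and blue lines for lower levels on the *ErbB2* array and the dotted line at log2 6. *Col4a1*, *Col4a2* and *Nid2* and 20 of 21 contractile genes lie lower, while *Col3a1*, *Lum*, *Mfap4* and *Aspn* lie higher.

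Of 44 proteases and inhibitors, 2 were higher and 4 lower past 2-fold, and the median was -0.04. *Mmp12*, the macrophage elastase, was at 10.37 and 7.87, 5.65-fold lower. *Serpinb2*, an inhibitor of plasminogen activators, was at 5.84 and 3.43, under log2 6 on both arrays. *Plaur*, the urokinase receptor, was 2.32-fold lower, and *Plat*, tissue plasminogen activator, was at 8.17 and 9.75, 3.01-fold higher. The other probe set of *Plat* differed by 0.27, at levels under log2 6.

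Growth factors past 2-fold were lower more often than higher. Of 43 ligands and antagonists, 12 were lower and 3 higher, beside 1.51% and 0.544% of all genes. The list median was -0.16, with 17 above 0. *Ereg*, epiregulin, a ligand of the EGF receptor family to which ErbB2 belongs, was at 9.20 and 6.19, 8.04-fold lower. *Hbegf*, another such ligand, was at 9.26 and 8.22. *Vegfc*, the lymphatic growth factor, was at 8.83 and 6.98. *Tgfb2* and *Tgfb3*, ligands of the TGF-β receptors, were at 9.34 and 11.34 on the normal array and 7.87 and 9.84 on the *ErbB2* array. *Bmp4* was at 7.31 and 5.47, and *Fst* and *Nog*, which bind activins and BMPs, differed by -1.61 and -1.37. *Fgf2*, *Fgf10*, *Fgf13* and *Pdgfa* completed the 12 with differences of -1.84 to -1.03.

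*Ccn3*, a matricellular protein of the CCN family, had the largest positive difference of all genes at log2 6 or more. It was at 6.47 on the normal and 10.24 on the *ErbB2* array, 13.7-fold higher, and its 2 probe sets differed by 3.63 and 3.77. With *Ets2* it was at 8.90 and 7.30, lower on the *ErbB2* array. *Ptn*, pleiotrophin, was at 5.43 and 7.34, and *Gdf10*, a BMP-like ligand, at 6.16 and 7.83. *Igfbp3*, which binds insulin-like growth factors, was at 6.45 and 8.28, while *Igfbp2* was at 12.50 and 11.16.

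Some genes that respond to these pathways were lower. Of 24 TGF-β and BMP response genes, 5 were lower past 2-fold and 0 higher, and the list median was -0.28, with 10 above 0 up to *Acvr2a*, an activin receptor, at 0.85. The 5 lower ones are targets or feedback inhibitors of BMP and TGF-β signaling, namely *Id1* (10.43 and 9.33), *Id2* (9.59 and 8.44), *Id4* (10.69 and 9.06), *Smad6* (10.36 and 9.02) and *Smad7* (9.49 and 8.46). Of 26 genes of ERK feedback and the immediate early response, 4 were lower and 0 higher, and the list median was -0.30, with 8 above 0 up to *Etv5* at 0.43. These were the early transcription factor *Fos* (8.72 and 7.43), the ERK phosphatases *Dusp4* (10.20 and 9.05) and *Dusp6* (8.62 and 7.49), and *Phlda1* (9.59 and 7.77). With *Ets2* the 4 ERK genes differed by 0.08 to 0.87.

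Among 39 chemokines and cytokines, 8 were lower and 3 higher past 2-fold. The list median was -0.09, with 16 above 0. *Tslp*, an epithelial-type cytokine that acts on dendritic cells, had the largest difference in the comparison, at 8.20 and 4.22. With *Ets2* it was at 6.47 and 9.87, so the *ErbB2* arrays held both the highest and the lowest level. *Ccl6*, a chemokine for myeloid cells, was at 10.56 and 8.50, 4.18-fold lower. *Cxcl12*, the stromal ligand of Cxcr4, was at 9.15 and 7.69, though its probe sets spanned -1.47 to 0.35. *Il11*, *Il6*, *Cxcl5* and *Csf1* differed by -1.78, -1.38, -1.60 and -1.01, and *Ppbp* was under log2 6 on both arrays.

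The 3 higher ones were *Il33*, an alarmin of stromal cells, at 4.05 and 6.68, *Ccl8*, a monocyte chemokine, at 8.43 and 10.49, and *Ccl11*, eotaxin, at 7.37 and 8.45. *Ccl8* was higher also with *Ets2*, at 9.35 and 11.50, a difference of 2.15 beside 2.06.

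Macrophage and myeloid genes, which were higher on the *ErbB2* array with *Ets2*, were not so without it. Of 39 such markers 2 were higher and 3 lower past 2-fold in *Ets2* null cells, the median being -0.18 and 28 being below 0. With *Ets2*, 18 of 39 were higher, beside 151 of all genes (0.83%) higher and 31 (0.17%) lower past 2-fold, with a list median of 0.97. *Cd68*, a lysosomal protein of macrophages, was at 8.70 and 8.21, and *Csf1r*, their growth factor receptor, at 10.29 and 9.60. *Lyz2*, lysozyme, was at 12.03 and 11.99. Of the defining markers, *Itgam* (5.56 and 5.02) and *Ptprc* (5.75 and 5.58) were under log2 6.

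Single myeloid genes differed more. *Clec7a*, the β-glucan receptor dectin-1, was at 8.62 and 6.37, 4.78-fold lower, and *Gpnmb*, a glycoprotein of foamy macrophages, at 10.06 and 8.91. *C1qa* and *C1qc*, chains of the first complement component, were higher, at 6.61 and 8.99 and at 6.79 and 7.85. *C1qb* was at 7.40 and 7.97 on its brightest probe set, and its 3 probe sets differed by 0.57 to 1.69. The summed linear level of the myeloid list was 19671 and 17215 without *Ets2* and 24221 and 41339 with it. Its part in the values of *Mmp12* and *Ccl6*, genes that macrophages express, was not tested.

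Genes of sterol synthesis were higher as a group, by small amounts. Cells switch these enzymes on together through the transcription factor SREBP2 when cholesterol is short. All 20 genes measured were above 0, at 0.24 to 1.01, with a median of 0.65, and 1 was past 2-fold. *Mvd*, mevalonate decarboxylase, was at 7.49 and 8.50, 2.01-fold higher. *Fdft1*, squalene synthase, was at 8.85 and 9.79, and *Hmgcs1*, the synthase before the rate-limiting step, at 10.80 and 11.71. *Insig1*, the membrane protein that holds SREBP2 back and is itself a target, was at 8.77 and 9.61. With *Ets2*, 17 of the 20 were below 0, with a median of -0.24.

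The promoter window of *Hmgcs1* (chr13:119690101-119690400, plus strand, GRCm38.p6, RefSeq) holds the letters TCACNCCA, a form of the sterol regulatory element, and is shown as an example of this group, with the match in capitals 137 bases before the start.
Hmgcs1: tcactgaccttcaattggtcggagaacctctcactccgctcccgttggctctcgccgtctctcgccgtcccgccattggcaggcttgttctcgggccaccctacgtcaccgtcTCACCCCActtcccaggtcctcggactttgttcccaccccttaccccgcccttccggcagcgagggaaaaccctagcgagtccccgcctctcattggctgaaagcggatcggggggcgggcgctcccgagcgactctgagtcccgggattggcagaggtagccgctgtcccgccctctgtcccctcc
Of the 14453 windows, 679 (4.7%) held these letters on either strand, as did 3 of 16 in the sterol list, *Hmgcs1*, *Msmo1* and *Srebf2*.

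Fatty acid synthesis had a median of 0.32. *Scd1* and *Scd2*, which make monounsaturated fatty acids, were 2.12-fold and 2.96-fold higher, *Scd2* being at 10.64 and 12.21. With *Ets2* it was at 11.72 and 10.34. *Cyp7b1*, an oxysterol hydroxylase, was at 6.06 and 9.50, 10.8-fold higher on its brightest probe set, while its 3 probe sets spanned -0.15 to 3.43. With *Ets2* it was at 7.87 and 8.08.

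Of 22 retinoid and prostaglandin genes, 4 were lower and 2 higher past 2-fold, and the list median was -0.10 with 9 above 0. *Aldh1a1*, a retinaldehyde dehydrogenase, was at 10.43 and 7.18, 9.51-fold lower, and was at 8.77 and 8.78 with *Ets2*. *Cyp26b1*, which degrades retinoic acid, and *Rarb*, a retinoic acid receptor induced by it, differed by -1.46 and -1.44. *Crabp2*, which carries retinoic acid into the nucleus, and *Aldh1a2*, another retinaldehyde dehydrogenase, were the higher ones, at 5.47 and 6.88 and at 5.72 and 6.79. Of 15 targets of the oxidative stress factor Nrf2, 14 were below 0 and 2 were lower past 2-fold, with a median of -0.31. These 2 were *Aldh1a1*, which is on both lists, and *Gsta4*, at 10.26 and 9.12. *Nqo1*, at 7.47 and 6.49, was just short of 2-fold. On the retinoid and prostaglandin list, *Ptgs2*, the inducible cyclooxygenase, was at 11.13 and 9.43, 3.24-fold lower.

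Stress and hypoxia genes held a few higher members without a shift of their lists. *Ddit3*, the stress factor CHOP, was at 8.96 and 10.67, 3.29-fold higher, and *Trib3*, its target, was at 9.09 and 10.18, while the list median was 0.07. *Ndrg1* (6.85 and 8.50) and *Ddit4* (8.95 and 10.17) were higher in a hypoxia list with a median of 0.04. Both were low on the normal *Ets2* null array, since *Ndrg1* was at 8.44 and 7.61 and *Ddit4* at 10.22 and 9.36 with *Ets2*. In the Wnt list, with a median of 0.17, the antagonist *Sfrp2* was at 6.33 and 8.49, 4.49-fold higher, and the ligand *Wnt4* was at 9.16 and 7.97.

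Other genes at the ends of the comparison belong to none of these groups. Among the 20 lowest, *Apol8*, an apolipoprotein L, was at 7.53 and 3.90 and was at 4.19 and 4.15 with *Ets2*, so the normal *Ets2* null array stood apart. *Cck*, the peptide cholecystokinin, was at 9.84 and 6.85, 7.94-fold lower, and *Syt13*, a synaptotagmin, at 9.55 and 6.58. *Cyp4a12a*, a fatty acid hydroxylase, was at 8.46 and 5.54. *Sorbs2*, an adaptor of the actin cytoskeleton, was at 7.92 and 5.22, though its 4 probe sets spanned -2.69 to -0.14. *Crct1* was 6.06-fold lower. These normal levels were the highest of the 4 arrays for each of the genes.

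Among the 20 highest, *Lgi2* was at 5.88 and 8.71 and the granin *Scg2* at 4.47 and 6.71. *Abi3bp*, a matrix-binding protein, was at 3.64 and 6.05, and *Serpinb1a*, an inhibitor of neutrophil proteases, at 4.76 and 6.76. Their normal levels were under log2 6 and the lowest of the 4 arrays. The other probe set of *Serpinb1a* differed by 0.10, at levels under log2 6. *Medag*, a gene of fat cell differentiation, was 4.24-fold higher, the carbonic anhydrase *Car6* 3.53-fold and the unconventional myosin *Myo7a* 3.44-fold. *Medag* was at 8.32 and 8.01 with *Ets2* and at 6.09 and 8.18 without, and here too the normal *Ets2* null array was the low one.

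Proliferation genes held no member past 2-fold. Of 37 DNA replication and 40 mitosis genes, 0 passed 2-fold, with medians of -0.03 and -0.07. With *Ets2* all 37 replication genes were above 0, with a median of 0.49. Hox genes, S100 genes and ribosomal proteins also had 0 members past 2-fold, with medians of 0.01, -0.17 and 0.13. Lymphoid, mast cell and Schwann cell markers had 0 past 2-fold. Of 21 endothelial markers 1 was lower, as was 1 of 8 pericyte markers, *Mcam*, and 2 of 16 adipocyte markers, *Cd36* and *Plin4*. *Pecam1* was under log2 6 on both *Ets2* null arrays.

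**Figure D4:**
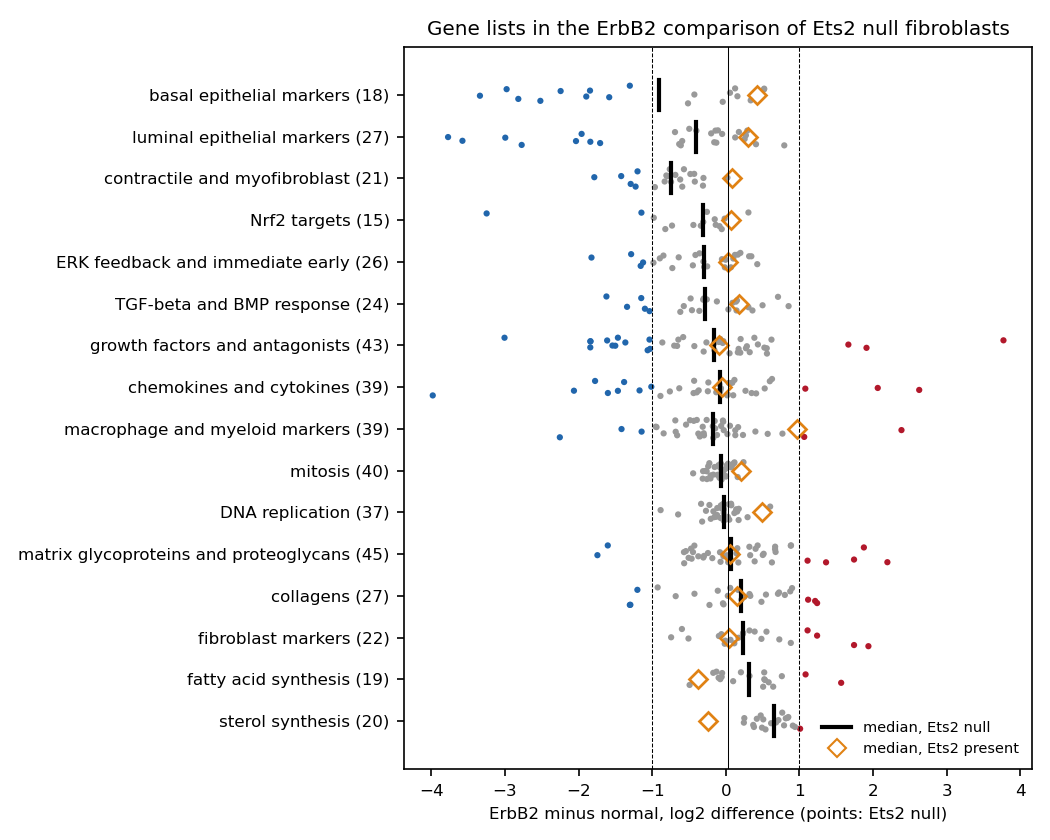
Log2 difference between the *ErbB2* and normal *Ets2* null arrays for each member of 16 gene lists (points, blue and red past 2-fold, number measured in brackets), with the list median as a black bar and the median in fibroblasts with *Ets2* as an orange diamond. The contractile bar lies at -0.74 and the sterol bar at 0.65, while the orange diamonds lie at 0.08 and -0.24.

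Each gene's difference without *Ets2* was set beside that with *Ets2*, a comparison that shares no array with it. Across 18194 genes, which are not independent replicates, Pearson's r between them was -0.21 and Spearman's rho was -0.14, with all 4 arrays processed by RMA. Of the 275 genes lower without *Ets2*, 35 were higher and 3 lower past 2-fold with it. Of the 99 higher genes, 11 were higher and 5 lower. Over all genes, 0.83% were higher and 0.17% lower past 2-fold with *Ets2*. Of the 35 genes, 11 were on the epithelial lists, which had 27 luminal and 18 basal genes measured. The 3 genes lower in both were *Il6*, *Cck* and *Masp1*, and the 11 higher in both included *Ccl8*, *Lum*, *Sfrp2*, *C1qa*, *C1qc*, *Abi3bp* and *Pamr1*.

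**Figure D5:**
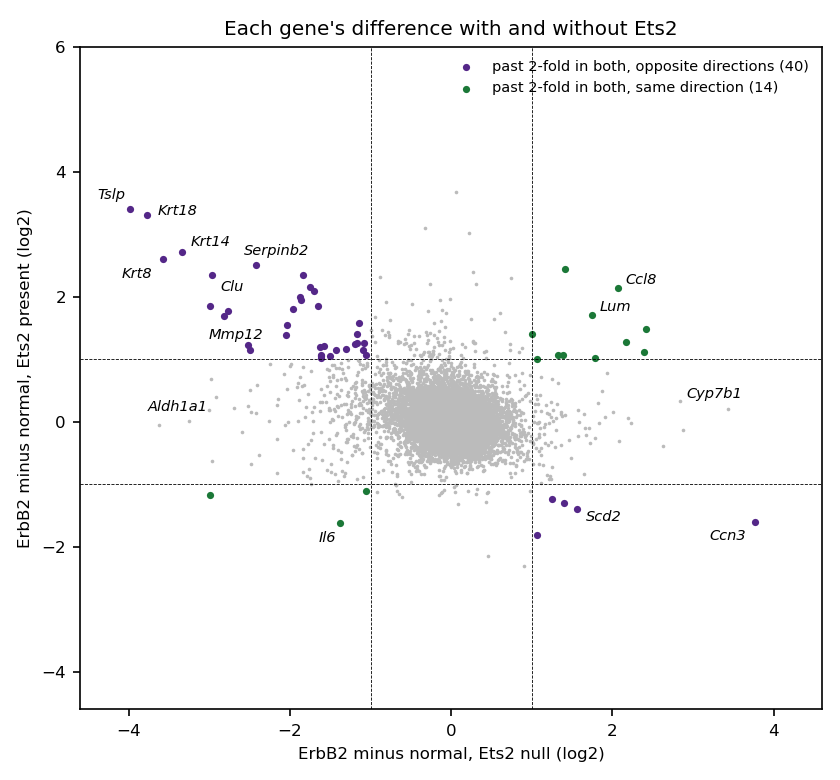
Log2 difference between *ErbB2* and normal fibroblasts without *Ets2* (x axis) and with it (y axis) for each gene, dashed lines marking 2-fold, with purple points past 2-fold in opposite directions and green points past it in the same direction. *Tslp* and the keratins lie at the upper left and *Ccn3* at the lower right, while *Aldh1a1* and *Cyp7b1* lie near 0 on the y axis.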

How the data were processed

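Values were the log2 expression levels that the authors deposited, which they made by RMA (background correction, quantile normalization and summarisation of probes). Its software, version and probe definitions were not given in the sources used here. Since RMA equalises the distributions of arrays, a shift of most genes together could not be seen. Array medians lay between 5.51 and 5.54. Probe sets were named by the platform annotation, with symbols checked by gene ID against RefSeq, which did not hold 204 of the 34958. The 932 with several symbols and the 9211 unnamed ones were not used for genes.

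Differences were taken in Python 3.11.15 (pandas 2.3.3, numpy 2.4.6) for 1 probe set per gene, that with the highest mean over the 4 arrays. Counts past 2-fold and 4-fold replaced a test, since each genotype had 1 array, which limits the precision. Over single probe sets, 457 were lower and 162 higher past 2-fold. The counting code was run on simulated data with known differences, which does not measure the spread between cultures.

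The comparison, the members and the 36 gene lists were chosen with earlier results of these data known. Genes named were *Ets2*, the 20 with the largest differences each way at log2 6 or more on the higher array, the 4 largest of each list and list members past 4-fold, defining cell type markers, and 5 genes on either side of 4-fold. Others were named after their values were seen. A promoter search was planned for lists with enough members past 2-fold. None of the lists with a planned motif met that, so the searches for the CArG box and the sterol element were added later. Alternatives were centring on medians, quantile normalization, loess (statsmodels 0.14.6, with a span of 0.4), a floor at log2 6, other probe set choices, an 8-fold threshold, and means for medians.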

Additional observations from a re-analysis of the deposited data

Results flagged for a closer look

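A total of 14 genes differed past 4-fold between the *ErbB2* and normal *Ets2* null arrays and past 2-fold in the opposite direction between the arrays with *Ets2*. The difference between both comparisons was not tested, since each genotype had 1 array. Given as the *Ets2* null difference minus the *Ets2* present difference on the log2 scale, it was -7.38 for *Tslp*, -7.09 for *Krt18*, -6.18 for *Krt8*, -6.06 for *Krt14*, -5.32 for *Clu*, -4.93 for *Serpinb2*, -4.84 for *Cd24a*, -4.54 for *Wfdc2*, -4.51 for *Dsp*, -3.75 for *Krt17*, -3.65 for *Mmp12*, -3.59 for *Krt7* and -3.43 for *Asic3*. For *Ccn3*, the gene of the 14 that was higher without *Ets2*, it was 5.37. *Clu*, clusterin, a secreted chaperone, was at 10.07 and 7.09 without *Ets2* and at 7.81 and 10.16 with it. *Krt17*, *Serpinb2* and *Dsp* had at least 3 of 4 levels under log2 6.

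Among the probe sets with several symbols or none, which the comparison did not use for genes, 5 differed past 4-fold, all of them lower on the *ErbB2* array.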

How the results depend on the processing

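Counts past 2-fold and 4-fold stayed within 1.5 times under median centring, quantile normalization, loess correction, the log2 6 floor and other probe set choices. Leaving out marker genes of other cell types, a step added after the data were seen, left 248 lower and 97 higher past 2-fold. Past 4-fold it left 28 and 12. That step drops only listed genes, so it does not test for a different mix of cells. A threshold of 8-fold left 7 genes lower and 2 higher. Of 36 list medians, 30 kept their sign under every alternative run. That of the Schwann cell markers went from 0.11 to -0.011 without probe sets named _x_at or _s_at, and those of 5 lists that lay within 0.1 of 0 (Hox, hypoxia, interferon-stimulated, mast cell and pericyte) changed sign under at least 1 alternative. With the floor at log2 6, medians were -1.85 for basal, -1.27 for luminal and -0.28 for myeloid markers and 0.32 for collagens. With the probe set that differed most they were -1.44 for basal markers, -0.58 for luminal markers and -0.26 for growth factors. With the mean of a gene's probe sets they were -0.14 for TGF-β and BMP response and 0.54 for sterol synthesis. As means, lists came to -1.10 (basal), -0.84 (luminal), -0.56 (Nrf2), -0.28 (growth factors) and 0.37 (fibroblast markers). The cause was not tested. No paired analysis was possible because each genotype had 1 array, and no replicate could be left out.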

Other observations

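Further groups of genes, chosen after their values were seen, differed together. The non-coding RNAs of an imprinted cluster, *Meg3*, *Rian* and *Mirg*, were at 11.58, 8.75 and 8.27 on the normal and 10.34, 7.54 and 7.05 on the *ErbB2* *Ets2* null array, differences of -1.25, -1.21 and -1.21. *Meg3* had 11 probe sets, which spanned -1.65 to -0.18. With *Ets2* the 3 differed by -0.23, -0.03 and -0.24. The metallothioneins *Mt1* and *Mt2*, which bind zinc and copper, were 2.13-fold and 2.24-fold higher, *Mt2* being at 10.55 and 11.71. The differences with *Ets2* were -0.68 and -0.34. Without *Ets2* the other probe set of *Mt1* differed by 0.13. *Cav1* and *Cavin2*, which build caveolae, were at 11.01 and 10.65 on the normal and 9.30 and 8.84 on the *ErbB2* array, differences of -1.71 and -1.81, against 0.01 and 0.08 with *Ets2*.

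*Gt(ROSA)26Sor*, the locus in which reporter genes are often placed, was at 6.23 on the *ErbB2* *Ets2* null array and between 2.95 and 3.35 on the other 3.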
